A study of Arabidopsis thaliana with 12 samples.

Results

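The response of the msh1 recA3 double mutant of Arabidopsis thaliana to heat is described from 7 arrays of a series of 12, namely 3 arrays of the heated double mutant and 4 of the untreated double mutant, each chosen by its sample title. All 22746 probe sets other than the manufacturer's controls were compared between these groups. The heated plants carried mutations of both MSH1 and RECA3 in the Col-0 background, were 8 weeks old and were exposed to 37 °C. The untreated plants had the same genotype and age and stayed at 24 °C. The length of the heat is given as 2 h in one label and as about 24 h in another, so it is not known which applied. Seeds had been cold treated, and plants were grown at 24 °C with 8 h and then 16 h of light per day. The labels do not name the mutant alleles or say how many plants made up a sample. RNA came from all above-ground parts, so in these bulk samples fewer cells of a type and less RNA per cell cannot be told apart. The other 5 arrays, 3 of heated and 2 of untreated wild type Col-0, were used here for the estimate of error and for the test of whether a gene's heat response differed between the genotypes. Biological replicates are named in the labels, but separate cultures or growth batches are not, and p-values measure the spread between these samples.

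MSH1, a MutS homologue of plastids and mitochondria, and RECA3, a mitochondrial RecA homologue, limit recombination between repeats of the organelle genomes. Heat unfolds proteins, and heat shock factors then switch on genes for chaperones: small heat shock proteins hold unfolded proteins, the larger ATP-driven chaperones refold them, and co-chaperones pass clients between them. In leaves heat is also known to disturb photosynthesis, organelle gene expression and growth. MSH1 and RECA3 themselves were not analysed here, since no probe set was assigned to either, so the genotype labels were not checked by the mutated genes.

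Signals are log2 values made by RMA, a method that corrects background, equalises the arrays' distributions and summarises the probes of each set, so a difference of 1 is a doubling of signal. A probe set is called where the moderated test of limma, fitted over all 12 arrays, gave an adjusted p under 0.05. Differences are heated minus untreated with their standard error (SE), and the named probe sets are given as the signal in heated replicates 1, 2 and 3, followed by untreated replicates 1, 2, 3 and 4. Median array signals lay between 5.03 and 5.27, the lower quartiles between 3.67 and 3.77 and the upper quartiles between 7.2 and 7.27. Values near or below these lower quartiles are among the dimmest of the array, and a difference against a group at that level is a lower bound, since its probe set is not shown to be above background there. Of the 22746 probe sets, 13513 were assigned to a single gene, and 11939 of those had only a locus number and no gene name. Most heat shock genes of the array thus appear under a locus number. The lists hold members measured under a name and some entered by locus number, such as AT5G48570. Members and lists were chosen with earlier results of these data known. Their counts are therefore no independent test, and are to be read beside the shares over all probe sets given next.

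Heat changed 7725 probe sets in the double mutant, 34% of those tested, with 3140 higher (13.8%) and 4585 lower (20.2%). Falls were more numerous, and the very large changes were mostly rises: 356 probe sets rose by at least 2 on the log2 scale (1.57%), against 120 that fell by at least as much (0.528%). The median difference over all probe sets was 0.0071. At a size of at least 1, 2154 were called (9.47%), of which 971 rose (4.27%) and 1183 fell (5.2%). The heated and untreated arrays did not overlap in 8718 probe sets (38.3%), of which 3865 were higher (17%) and 4853 lower (21.3%), and 7082 (31.1%) were also called.

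The direction of small changes depended on the scale when reference genes set it. A further quantile normalization between arrays gave 3397 probe sets higher (14.9%), 4237 lower (18.6%) and a median difference of -0.0092. RMA had already equalised the arrays' distributions, so this step could move the scale little and does not test it. Centring each array on 2 reference genes, PEX4 and AT2G28390 (MON1), moved the median difference to 0.377. It gave 12829 probe sets higher (56.4%) and 1957 lower (8.6%). AT2G28390 itself had 6.70, 6.87 and 6.66 in heated plants, against 7.44, 7.53, 7.45 and 7.39 in untreated plants, and it fell by 0.71 on the log2 scale (adjusted p = 9.99e-05). PEX4 had 8.05, 7.77 and 8.24 in heated plants and 8.19, 8.21, 7.99 and 7.80 in untreated plants (difference -0.03, not called). The shift by centring thus rests mainly on the fall of AT2G28390. Counts under this centring are given beside a list where they turn its direction.

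Heated replicate 3 stood apart from its group. On the first principal component of the 7 arrays, which held 77.3% of the variance, heated replicates 1 to 3 scored -62.8, -65.0 and -58.1, and untreated replicates 1 to 4 scored 46.7, 48.1, 45.9 and 45.2. The second component, with 9.26%, had scores of -10.0, -18.3 and 30.6 in the heated arrays and 13.2, 17.2, -11.8 and -20.9 in the untreated arrays, so the untreated arrays also split in pairs. The root mean square distance of heated replicate 3 to the mean of the other heated double mutant arrays was 0.350, against 0.261 to the mean of the heated wild type. For heated replicate 1 these distances were 0.253 and 0.341, and for replicate 2 they were 0.279 and 0.371. By these distances the genotype label of heated replicate 3 is not verified, and the cause of its distance was not tested. The double mutant means here were of 2 arrays and the wild type means of 3, so the distances are not on equal terms. Single genes, described below, differed in this. In NDB4 heated replicate 3 had 5.35, beside 5.07 and 5.47 in replicates 1 and 2 and a heated wild type mean of 4.23. In DRT100 it had 7.08, beside 5.48 and 4.87 and a heated wild type mean of 7.17. Among called rises, replicate 3 had the smallest rise of the 3 heated arrays in 43.9% of probe sets, and the median rise over the untreated mean was 0.760, 0.737 and 0.661 in heated replicates 1, 2 and 3. Without it, 7454 probe sets were called (32.8%), 3140 higher (13.8%) and 4314 lower (19%). The calls shared with and without it numbered 6604, a further 1121 were made only with it and 850 only without it, and none of the shared calls changed sign.

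**Figure D1:**
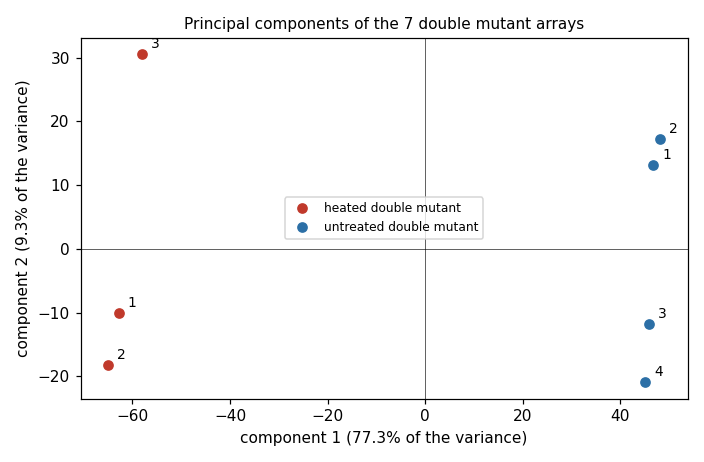
Scores of the 7 double mutant arrays on the first (horizontal) and second (vertical) principal components of the log2 signals, without units, each point an array with its replicate number. Treatment separates the arrays along the first component, with heated arrays between -65.0 and -58.1 and untreated arrays between 45.2 and 48.1, while heated replicate 3 lies at 30.6 on the second.

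Within the lists of heat shock chaperones and of co-chaperones, ATHSP22.0, AT5G48570 (ROF2) and Hop3 had the largest single rises. Of 9 named chaperones 6 rose and none fell, with a median difference of 2.11, and of 12 co-chaperones and prolyl isomerases 10 rose and none fell, with a median of 1.52. Leaving out any 1 array gave 6 to 7 and 10 to 11 rises. ATHSP22.0, a small heat shock protein of the endoplasmic reticulum (ER), had 12.98, 12.84 and 12.86 in heated plants, against 3.77, 3.89, 3.77 and 3.78 in untreated plants. Its untreated values were near the arrays' lower quartile, so the measured difference of 9.09 ± 0.08 (SE, adjusted p = 1.97e-14) is a lower bound. HSA32, a protein needed to keep acquired thermotolerance, had 11.08, 11.16 and 11.18 after heat and 5.34, 4.84, 5.86 and 5.32 without (5.80 ± 0.20, adjusted p = 2.4e-09). BOB1, a small heat shock protein with a NudC domain that also acts in development, had 10.22, 10.26 and 10.08 in heated plants and 6.90, 6.60, 6.95 and 7.19 in untreated plants (3.27 ± 0.12). Cpn60beta2, a subunit of the plastid chaperonin, rose by 3.02 ± 0.27. The 3 chaperones not called had differences of -0.07, 0.26 and 0.64.

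Among the co-chaperones, AT5G48570 (ROF2), a prolyl isomerase of the FK506-binding family that binds HSP90, had 12.96, 12.99 and 12.62 after heat, against 4.3, 4.23, 4.81 and 5.80 in untreated plants. The difference was 8.07 ± 0.30 (adjusted p = 4.75e-09), and untreated replicate 4 was the highest of its group. Hop3, an adaptor between HSP70 and HSP90, had 12.06, 11.98 and 11.38 in heated plants and 3.95, 4.04, 4.15 and 4.97 in untreated plants (7.53 ± 0.23). Fes1A, a nucleotide exchange factor that protects cytosolic HSP70, had 10.91, 11.13 and 11.02 after heat and 5.69, 6.15, 5.48 and 5.99 without (5.19 ± 0.20). SGT1A, an HSP90 partner in immunity and hormone responses, rose by 3.25 ± 0.18. In these genes the heated and untreated arrays were several log2 units apart, and their differences without heated replicate 3 lay within 0.21 of those given.

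The largest rise of the array's single-gene probe sets was that of AT1G53540, with 13.69, 13.59 and 13.66 in heated plants and 4.24, 4.19, 4.23 and 5.21 in untreated plants (9.18 ± 0.22). AT1G52560 had 11.73, 11.70 and 11.76 after heat and 3.40, 3.26, 3.31 and 4.29 without. Most of its untreated values were below the lower quartile, so the measured 8.17 ± 0.21 is a lower bound. AT2G29500 rose by 7.85 ± 0.24, AT5G37670 by 7.23 ± 0.14 and AT5G51440 by 7.06 ± 0.16. The annotation used here gives no name for these loci. In AT1G53540, AT1G52560 and AT2G29500 untreated replicate 4 was above the other untreated arrays. AT1G30070, with 11.93, 12.04 and 12.03 in heated plants and 6.81, 6.57, 6.78 and 6.83 in untreated plants (5.26 ± 0.09), and AT5G18340 (4.16 ± 0.08) were among the 6 rises of smallest adjusted p.

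**Figure D2:**
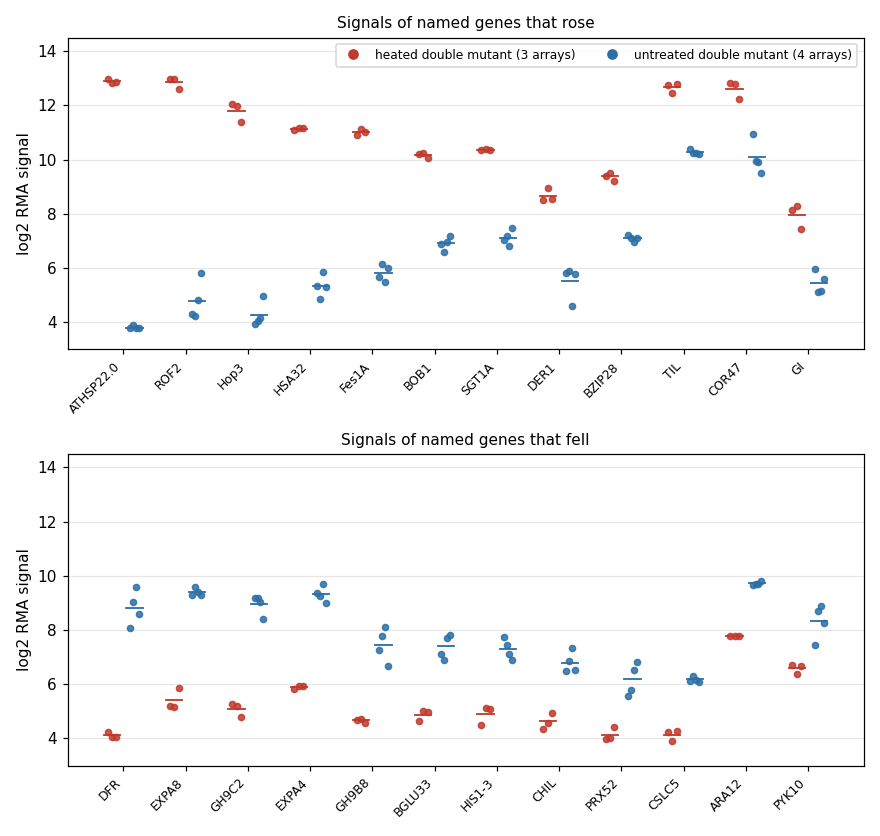
Log2 RMA signal (vertical axis) of 12 named genes that rose (upper panel) and 12 that fell (lower panel), each point an array and each bar a group mean, with the 3 heated double mutant arrays left of the 4 untreated double mutant arrays. The groups do not overlap in any of these genes, as in 7082 of the 7725 probe sets called over the array. The spread within a group is small beside the distance between groups for ATHSP22.0, EXPA4 and ARA12.

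Of 14 genes of the ER folding and degradation machinery 8 rose and none fell, with a median of 0.64 (7 without heated replicate 3). BZIP28, a membrane-anchored factor that is released to the nucleus when proteins misfold in the ER, had 9.41, 9.52 and 9.21 in heated plants and 7.23, 7.11, 6.98 and 7.11 in untreated plants (2.28 ± 0.12, adjusted p = 9.25e-08). ATERDJ3B, a co-chaperone of the ER HSP70, had 10.55, 10.31 and 10.12 after heat and 8.77, 8.43, 8.26 and 8.71 without (1.78 ± 0.13). DER1, a derlin of the pathway that exports misfolded proteins from the ER, had 8.51, 8.96 and 8.55 in heated plants and 5.83, 5.89, 4.59 and 5.77 in untreated plants (3.15 ± 0.28). A second probe set of DER1 differed by 0.10 (adjusted p = 0.377), so its probe sets disagreed. DER2.1, another derlin, rose by 1.05 ± 0.17.

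Of 46 genes of ubiquitin conjugation and removal 10 rose (21.7%) and 6 fell (13%), beside 13.8% and 20.2% over all probe sets, with a median of 0.11. Without heated replicate 3, 15 rose and 5 fell, and centring gave 29 higher and 1 lower. SK18, an SKP1-like subunit of ubiquitin ligases, had 7.34, 7.34 and 8.24 in heated plants, against 6.05, 6.14, 5.56 and 5.51 in untreated plants (1.82 ± 0.24). CUL4, the scaffold of another ligase class, rose by 0.97, and the ubiquitin proteases UBP18 and UBP22 rose by 1.36 and 1.14. The conjugating enzymes UBC20 (-0.68 ± 0.12) and UBC29 (-0.66 ± 0.12) fell, though UBC20 was not called after centring (-0.31). ATG8 proteins, which coat the membrane of autophagosomes, are most of the 11 autophagy genes, of which 4 rose and 2 fell (6 higher and none lower after centring). APG8A (ATG8a) had 9.39, 9.40 and 9.54 after heat and 8.19, 8.39, 7.58 and 7.65 without (1.49 ± 0.19), and ATG8H rose by 1.54 ± 0.21. ATG8F had 9.92, 9.89 and 10.32 in heated plants and 10.64, 10.68, 10.44 and 10.57 in untreated plants (-0.54 ± 0.11), and ATG8G fell by 0.65 on the log2 scale. Centred on the reference genes, ATG8F differed by -0.17 and ATG8G by -0.28, and neither was called.

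Of 21 genes of the ESCRT complexes and the exocyst 4 rose (19%) and 3 fell (14.3%), beside 13.8% and 20.2% over all probe sets. ESCRT complexes sort membrane proteins for the vacuole, and the exocyst tethers secretory vesicles. Centring gave 11 higher and 1 lower. VPS60.1, an ESCRT-III related subunit, had 8.30, 8.38 and 8.47 in heated plants and 6.44, 6.48, 6.25 and 6.29 in untreated plants (2.02 ± 0.11). SEC10, an exocyst subunit, had 6.09, 6.54 and 6.50 after heat and 7.37, 7.38, 7.17 and 7.56 without (-0.99 ± 0.14). The falls numbered 5 without heated replicate 2 and 1 without heated replicate 3. Of 45 vacuolar and secreted proteases 14 fell (31.1%) and 3 rose (6.7%), although centring on the reference genes gave 22 higher and 8 lower. The 3 rises were 0 without heated replicate 1 or 2, and 1 without untreated replicate 2 or 4. ARA12, a secreted subtilisin protease, had 7.78, 7.77 and 7.79 in heated plants and 9.67, 9.70, 9.70 and 9.82 in untreated plants (-1.94 ± 0.12), scpl42, a serine carboxypeptidase-like protein, fell by 1.38 on the log2 scale, and the subtilisin SBT1.3 by the same amount.

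**Figure D3:**
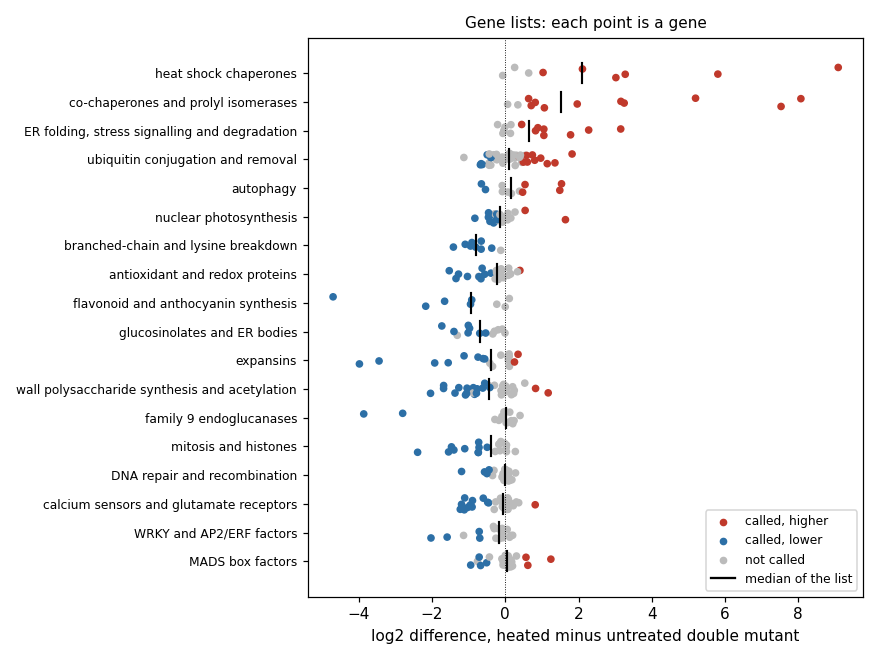
Log2 difference, heated minus untreated double mutant (horizontal axis), of each measured member of 18 gene lists, with red points for called rises, blue for called falls, grey for genes not called and a black bar for the list's median. The chaperone lists extend to 9.09 and 8.07, while the flavonoid and expansin lists extend down to -4.70 and -3.98.

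Genes encoded in the mitochondrial genome rose almost throughout. Of 16 such genes 15 rose and none fell, with a median difference of 2.70 beside 0.0071 for all probe sets, and the count was 15 when any 1 array was left out. Over all 23 mitochondrial probe sets 22 were called higher, and differences ran from -0.14 to 6.17. nad6, a subunit of respiratory complex I, had 11.66, 11.79 and 11.54 in heated plants and 6.17, 5.64, 5.17 and 4.99 in untreated plants (6.17 ± 0.26, adjusted p = 1.11e-08). The complex I subunits nad5, with 10.28, 10.38 and 10.14 after heat and 5.56, 5.90, 6.33 and 5.71 without (4.39 ± 0.18), and nad4L (4.36 ± 0.14) also rose. ccb203, which acts in cytochrome c maturation, had 8.56, 8.95 and 8.45 in heated plants and 4.84, 4.92, 5.30 and 4.69 in untreated plants (3.71 ± 0.16). nad2, named after its values were seen, was the gene not called (-0.14). In the 15 genes called, the heated and untreated arrays did not overlap, as in 7082 of the 7725 probe sets called over the array. A copy of the mitochondrial genome lies in nuclear chromosome 2 of Arabidopsis, and the probes cannot tell the copies apart. For the nuclear locus AT2G07777 the values were 9.14, 9.62 and 9.46 in heated plants and 6.02, 4.17, 6.79 and 6.89 in untreated plants (3.44 ± 0.51), with the widest spread at untreated replicate 2.

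Plastid-encoded genes did not share this rise. Of 28 genes of the photosystems and the cytochrome b6f complex 1 was called higher (3.6%) and 3 lower (10.7%). These shares were below those of all probe sets, and the median was -0.03. The lone rise was 0 without heated replicate 1 or 2 or untreated replicate 1, 2 or 3, and without heated replicate 3 there were 2 rises; the falls numbered 1 without heated replicate 2. psaJ, a small subunit of photosystem I, had 10.92, 10.69 and 10.38 after heat and 11.38, 11.28, 11.38 and 11.39 without (-0.70 ± 0.18, and -0.33 and not called after centring). Genes of the NDH complex, which returns electrons to the plastoquinone pool, and of the ATP synthase had 7 of 16 lower and none higher (6 without heated replicate 3), with a median of -0.23. ndhA had 10.11, 8.98 and 9.22 in heated plants and 10.59, 10.62, 10.50 and 10.68 in untreated plants (-1.16 ± 0.21). ndhH fell by 0.83 on the log2 scale and ndhI by 0.77. Plastid genes for RNA polymerase, ribosomal proteins and the maturase had 5 of 20 lower and none higher, with a median of -0.55. The falls were 25% of the list, beside 20.2% over all probe sets. Falls in this list numbered 11 without heated replicate 1, and rises 1 without heated replicate 1 or 3 or untreated replicate 3. rps18, a ribosomal protein, had 9.53, 9.28 and 9.75 in heated plants, against 10.24, 10.36, 10.57 and 10.53 in untreated plants (-0.90 ± 0.17). Centring on the reference genes turned the photosystem list to 9 higher and none lower and the last list to 3 higher and 2 lower, while the NDH and ATP synthase list had 2 higher and 4 lower.

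**Figure D4:**
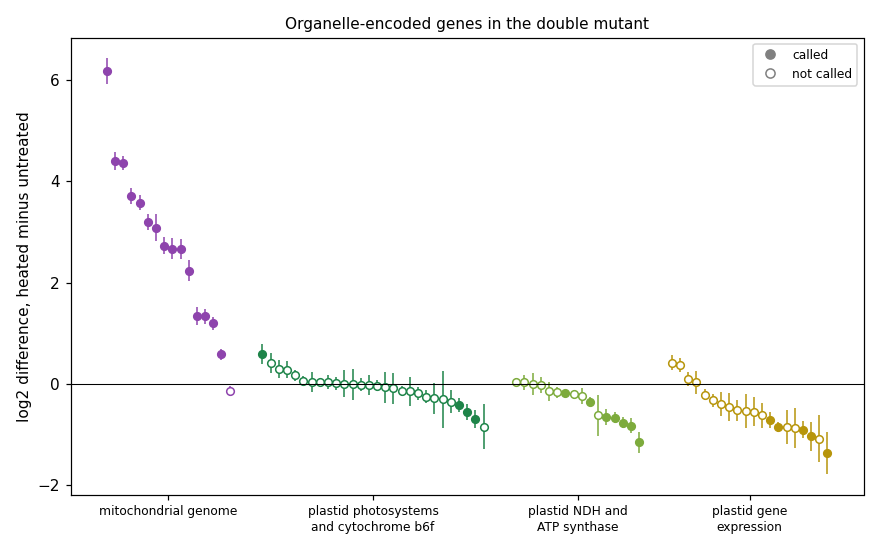
Log2 difference, heated minus untreated double mutant (vertical axis), of organelle-encoded genes in 4 groups, each point a gene with its standard error as a bar, sorted by size within the group; filled points are called and open points are not. Mitochondrial genes reach 6.17 and 15 of 16 are called higher, whereas the plastid genes lie between -1.37 and 0.59.

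Nuclear genes for respiration changed less and in both directions. Of 14 genes of the respiratory chain, the citrate cycle and pyruvate dehydrogenase 3 rose (21.4%) and 6 fell (42.9%). The shares over all probe sets were 13.8% and 20.2%. Centring on the reference genes turned the list to 8 higher and 2 lower. CYTC-2, a cytochrome c, had 10.67, 10.58 and 10.72 in heated plants and 8.70, 8.75, 8.83 and 8.85 in untreated plants (1.88 ± 0.07). SDH2-1, the iron-sulphur subunit of succinate dehydrogenase, rose by 0.73 ± 0.13 on this probe set and differed by 0.06 on its other, which was not called. IDH-VI, a subunit of isocitrate dehydrogenase, had 6.09, 6.03 and 6.15 after heat and 7.16, 6.93, 7.18 and 7.1 without (-1.01 ± 0.08), and LTA3, of the mitochondrial pyruvate dehydrogenase, fell by 0.92 on the log2 scale. The pentatricopeptide proteins, which bind and edit organelle transcripts, had 4 of 15 higher (26.7%) and 1 lower (6.7%), with 9 and 0 after centring. Rises numbered 1 without heated replicate 1 and 2 without untreated replicate 1. MEF8S, a mitochondrial editing factor, had 5.92, 6.16 and 4.87 in heated plants and 3.81, 4.34, 4.00 and 3.98 in untreated plants (1.62 ± 0.29), with heated replicate 3 the lowest heated array. OTP81 had 4.39, 4.44 and 4.71 after heat and 5.02, 5.30, 4.79 and 5.46 without (-0.63 ± 0.15, and -0.26 and not called after centring).

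The alternative NAD(P)H dehydrogenases bypass complex I, and 2 of the 5 measured fell while none rose. NDB4 had 5.07, 5.47 and 5.35 in heated plants and 6.73, 6.54, 6.86 and 7.09 in untreated plants (-1.51 ± 0.15, adjusted p = 1.32e-05). NDB3 had 5.79, 6.23 and 5.90 after heat and 7.14, 6.84, 7.65 and 7.55 without (-1.32 ± 0.19). The heat response of NDB4 differed between the genotypes by -1.62 (adjusted p = 0.0383), while the wild type differed by 0.11, with group means of 4.23 after heat and 4.11 without. That difference was the only one called among the 158 genes named here, and over the array 17 probe sets (0.0747%) were called for it. That count was 66 without heated replicate 3, 6 and 3 without heated replicates 1 and 2, and 14, 8, 9 and 7 without untreated replicates 1, 2, 3 and 4. For NDB4 the adjusted p of the difference was 0.0969 without heated replicate 1, 0.0608 without heated replicate 2, 0.0271 without heated replicate 3, and 0.0569, 0.034, 0.0785 and 0.0587 without untreated replicates 1, 2, 3 and 4. For NDB3 the difference of the responses was -1.62 with an adjusted p of 0.114. A p that misses the threshold does not show that the genotypes responded alike.

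Of 28 nuclear genes of photosynthesis 2 rose (7.1%) and 9 fell (32.1%), beside 13.8% and 20.2% over all probe sets. The median was -0.16, and centring on the reference genes gave 7 higher and 1 lower. The falls numbered 5 without heated replicate 1, 4 without heated replicate 2 and 5 without untreated replicate 2. LPA19, which acts in photosystem II assembly, had 9.46, 9.33 and 9.66 in heated plants and 7.71, 7.73, 8.13 and 7.80 in untreated plants (1.64 ± 0.13). PGRL1B, of cyclic electron flow around photosystem I, rose by 0.54 ± 0.11. LIL3:2, a light-harvesting-like protein, had 9.42, 9.18 and 9.37 after heat and 10.10, 10.24, 10.13 and 10.14 without (-0.83 ± 0.09). PSAN, a photosystem I subunit, fell by 0.46 on the log2 scale and was not called after centring (-0.09). Tetrapyrrole and chlorophyll genes had 2 of 14 higher (14.3%) and 4 lower (28.6%), beside 13.8% and 20.2% over all probe sets. After centring 8 were higher and 0 lower. Falls were 2 without heated replicate 1, 0 without heated replicate 2, and 1, 2, 1 and 2 without untreated replicates 1, 2, 3 and 4, while the rises numbered 2 in each case. PORB, a light-dependent enzyme of chlorophyll synthesis, had 11.37, 11.09 and 11.07 in heated plants and 10.39, 10.30, 10.37 and 10.69 in untreated plants (0.74 ± 0.11), and HEMA2, of the first committed step of tetrapyrrole synthesis, rose by 0.55 ± 0.10.

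The 2 leaf markers were bright in all arrays. RCA, the activase of Rubisco, had 13.77, 13.68 and 13.65 in heated plants and 13.73, 13.75, 13.83 and 13.85 in untreated plants (-0.09, adjusted p = 0.442). LHCB4.1, an antenna protein, fell by 0.23 on the log2 scale, was not called without heated replicate 1 (-0.22) and was 0.14 after centring. The root marker EXPA7 lay between 3.76 and 3.87 in heated plants and between 3.63 and 3.73 in untreated plants, close to the arrays' lower quartiles (0.11, not called). FMA, a factor of the guard cell lineage, had 5.22, 5.49 and 5.53 after heat and 5.50, 5.76, 5.95 and 6.11 without, groups that overlap (-0.42, adjusted p = 0.0301). Its call was lost without heated replicate 1 (-0.32) or 2 (-0.46), or untreated replicate 3 (-0.38) or 4 (-0.32). It was also lost with quantile normalization (-0.31), with centring (-0.05) and with only the 7 double mutant arrays fitted. The second root marker, PYK10, fell with the ER body genes described next.

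Of 8 flavonoid and anthocyanin genes 5 fell and none rose (2 higher and 5 lower after centring), and the 5 falls held when any 1 array was left out. DFR, which commits flavonoids to anthocyanins, had the largest fall among single-gene probe sets: 4.25, 4.05 and 4.05 in heated plants, against 8.06, 9.05, 9.58 and 8.58 in untreated plants (-4.70 ± 0.28, adjusted p = 2.45e-07). CHIL, a chalcone isomerase-like protein that aids flavonoid synthesis, had 4.36, 4.56 and 4.96 after heat and 6.49, 6.84, 7.34 and 6.52 without (-2.17 ± 0.21). UF3GT, an anthocyanin glycosyltransferase, had 4.76, 4.83 and 4.74 in heated plants and 5.96, 7.21, 6.66 and 5.91 in untreated plants (-1.66 ± 0.26), and AT5MAT, an anthocyanin malonyltransferase, fell by 0.95 on the log2 scale. The untreated arrays of DFR spread over 1.52, and the heated arrays over 0.20.

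Of 13 genes of glucosinolates and ER bodies, which store and release defence compounds, 7 fell and none rose (8 fell without heated replicate 3), with a median of -0.70. PYK10, the beta-glucosidase that fills ER bodies, had 6.71, 6.38 and 6.68 in heated plants and 7.47, 8.69, 8.88 and 8.24 in untreated plants (-1.73 ± 0.29). GTR2, a glucosinolate transporter, had 7.68, 7.08 and 6.99 after heat and 8.84, 8.92, 8.25 and 8.58 without (-1.4 ± 0.19). JAL33, a jacalin-related lectin, fell by 1.01 on the log2 scale and was not called after centring (-0.64). Among 22 beta-glucosidases 4 fell (18.2%) and 2 rose (9.1%), beside 20.2% and 13.8% over all probe sets, although centring gave 14 higher and 4 lower. Rises numbered 1 without heated replicate 1 or 3 or untreated replicate 1, 2 or 3. BGLU33 had 4.64, 5.02 and 4.96 in heated plants and 7.13, 6.91, 7.71 and 7.83 in untreated plants (-2.52 ± 0.21), and BGLU45, which acts on lignin precursors, fell by at least 1.70 on the log2 scale, with a heated mean of 3.51. BGLU25 had 9.11, 8.69 and 7.71 after heat, lowest in replicate 3, and 6.86, 6.78, 7.17 and 6.93 without (1.57 ± 0.27, and 1.97 without that replicate).

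Breakdown of branched-chain amino acids and lysine feeds electrons to the mitochondria when sugars are short. Of the 9 listed genes 8 fell (88.9%), beside 20.2% over all probe sets, and none rose. The median was -0.81. Leaving out any 1 array gave 7 to 8 falls, and centring on the reference genes left 4. MCCA, a subunit of methylcrotonyl-CoA carboxylase in leucine breakdown, had 6.44, 6.81 and 6.54 in heated plants and 7.71, 7.59, 7.69 and 7.76 in untreated plants (-1.09 ± 0.10). IVD, the dehydrogenase upstream of it, had 6.57, 6.59 and 6.50 after heat and 7.49, 7.81, 7.36 and 7.35 without (-0.95 ± 0.16). AT4G33150 (LKR/SDH), the bifunctional first enzyme of lysine breakdown, had 5.68, 6.24 and 5.86 in heated plants and 7.18, 7.45, 7.16 and 7.56 in untreated plants (-1.42 ± 0.35).

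Antioxidant and redox genes had 9 of 26 lower (34.6%) and 1 higher (3.8%), beside 20.2% and 13.8% over all probe sets. The median was -0.21, and centring gave 6 higher and 5 lower. The single rise was 0 without heated replicate 1 or 2 or untreated replicate 1, and 2 rose without heated replicate 3 or untreated replicate 4. Methionine sulphoxide reductases repair oxidised methionine: MSRB6 had 7.97, 7.32 and 8.19 in heated plants and 9.03, 9.17, 9.51 and 9.72 in untreated plants (-1.53 ± 0.25), and MSRB9 fell by 1.35 on the log2 scale. VTC4, an enzyme of ascorbate synthesis, had 7.69, 7.73 and 7.36 after heat and 8.85, 8.68, 8.99 and 8.96 without (-1.28 ± 0.16), and TO2, a mitochondrial thioredoxin, fell by 1.03 on the log2 scale. Of 7 class III peroxidases, secreted enzymes that act on the wall, 3 fell (42.9%) and none rose (3 higher and 3 lower after centring). PRX52 had 3.98, 4.02 and 4.41 in heated plants and 5.58, 5.79, 6.52 and 6.82 in untreated plants (-2.04 ± 0.29), PRXR1 fell by 1.28 on the log2 scale and AT5G64120 (PRX71) by 1.74.

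Expansins, which loosen growing cell walls, had 8 of 18 lower and 2 higher, with a median of -0.38, and centring gave 7 higher and 6 lower. The 2 rises were 1 without heated replicate 1 or 2 and 0 without heated replicate 3 or untreated replicate 2, 3 or 4, while falls stayed at 8 to 9. EXPA8 had 5.20, 5.15 and 5.87 in heated plants and 9.29, 9.58, 9.40 and 9.30 in untreated plants (-3.98 ± 0.20, adjusted p = 6.05e-08). EXPA4 had 5.81, 5.92 and 5.92 after heat and 9.37, 9.24, 9.70 and 9.0 without (-3.45 ± 0.15). EXPA15 and EXPA16 fell by 1.93 and 1.56 on the log2 scale. Of 15 family 9 endoglucanases, which cut glucan chains of the wall, 2 fell and none rose (9 higher and 2 lower after centring, and 2 higher and 2 lower without heated replicate 3), a share of falls of 13.3% beside 20.2% over all probe sets. GH9C2 had 5.26, 5.21 and 4.79 in heated plants and 9.18, 9.18, 9.04 and 8.40 in untreated plants (-3.86 ± 0.20). GH9B8 had 4.69, 4.73 and 4.57 after heat and 7.27, 7.78, 8.11 and 6.69 without (-2.80 ± 0.31). XTH32, a xyloglucan endotransglucosylase, had 8.18, 7.64 and 8.29 in heated plants and 9.59, 9.60, 9.36 and 9.10 in untreated plants (-1.38 ± 0.17). It was the only fall of 10 such enzymes (5 higher and 1 lower after centring); without heated replicate 3 or untreated replicate 4 there were 2 falls, and the single rise was lost without heated replicate 1 or 3 or untreated replicate 1 or 4.

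Synthesis and acetylation of wall polysaccharides fell in 18 of 38 genes and rose in 2, with a median of -0.44, and centring on the reference genes gave 14 higher and 11 lower. Leaving out any 1 array gave 14 to 19 falls. CSLC5, of the family that makes the xyloglucan backbone, had 4.22, 3.91 and 4.27 in heated plants and 6.14, 6.30, 6.17 and 6.10 in untreated plants (-2.04 ± 0.10, adjusted p = 3.92e-08). CSLC04, of the same family, fell by 1.68 on the log2 scale, and IRX15-L, of xylan synthesis, by 1.69. COB (COBRA), which orients cellulose microfibrils, had 8.74, 8.56 and 8.71 after heat and 10.13, 10.19, 9.82 and 10.04 without (-1.37 ± 0.12). GUT1, a glycosyltransferase of xylan synthesis, went the other way, with 7.89, 7.84 and 7.91 in heated plants and 6.75, 6.68, 6.66 and 6.73 in untreated plants (1.17 ± 0.08).

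Of 20 genes of mitosis and histones 10 fell, 10 were not called and none rose, with a median of -0.39, and the falls numbered 10 when any 1 array was left out (4 higher and 9 lower after centring). HIS1-3, a stress-inducible linker histone, had 4.50, 5.14 and 5.08 in heated plants and 7.75, 7.44, 7.12 and 6.89 in untreated plants (-2.39 ± 0.34). HTB2, a histone H2B, had 5.27, 5.51 and 5.88 after heat and 6.69, 7.35, 7.32 and 7.04 without (-1.55 ± 0.19). BUB3.1, of the spindle checkpoint, fell by 1.47 on the log2 scale, and the microtubule motor KINESIN-13A by 1.4. Of 30 tubulins, actins, myosins and their partners 3 rose (10%) and 6 fell (20%), beside 13.8% and 20.2% over all probe sets. Centring gave 13 higher and 2 lower. Rises numbered 1 without heated replicate 1 or 2 or untreated replicate 1 or 2. TUB7, a beta-tubulin, had 5.41, 5.67 and 6.06 in heated plants and 6.80, 7.1, 7.37 and 7.32 in untreated plants (-1.44 ± 0.16), and TUB9 fell by 0.92 on the log2 scale. NET3A, an actin-binding protein, rose by 0.79 ± 0.15. That size is a lower bound, since its untreated mean of 3.81 was near the arrays' lower quartiles.

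DNA repair and recombination genes, the class to which MSH1 and RECA3 belong, had 4 of 23 members lower and none higher, with a median of -0.01. The falls were 17.4% of the list, near the 20.2% over all probe sets, and centring turned the list to 12 higher and 1 lower. POLA3, of the DNA polymerase alpha and primase complex, had 4.97, 4.87 and 5.14 in heated plants and 6.13, 6.22, 6.18 and 6.23 in untreated plants (-1.19 ± 0.09). REV7, of translesion polymerase zeta, had 3.87, 4.00 and 3.84 after heat and 4.43, 4.64, 4.46 and 4.36 without (-0.57 ± 0.09), and it was not called after centring (-0.20). Its heated values were near the arrays' lower quartiles, so the size of the fall is a lower bound.

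Sugar metabolism and transport changed gene by gene. Of 17 starch and sugar genes 1 rose (5.9%) and 6 fell (35.3%), beside 13.8% and 20.2% over all probe sets. Centring gave 4 higher and 1 lower, and 2 rose without heated replicate 3 or untreated replicate 3. SBE2.2, a starch branching enzyme, had 8.98, 9.09 and 8.68 in heated plants and 7.90, 7.99, 8.08 and 8.17 in untreated plants (0.88 ± 0.12). ATSPS4F, a sucrose phosphate synthase, had 6.13, 6.44 and 4.88 after heat, lowest in replicate 3, and 6.79, 7.13, 7.98 and 8.15 without (-1.70 ± 0.39, and -1.23 without that replicate). APL3, a subunit of the first enzyme of starch synthesis, fell by 0.65 on the log2 scale and was not called after centring (-0.28). Of 29 sugar, nitrate and peptide transporters 4 rose and 7 fell (17 and 5 after centring), and 2 rose without heated replicate 2 or 3. SWEET1, a glucose exporter of the plasma membrane, had 9.60, 9.06 and 9.30 in heated plants and 7.06, 7.24, 6.94 and 6.09 in untreated plants (2.49 ± 0.26). TMT1, which loads sugars into the vacuole, had 5.15, 5.22 and 5.30 after heat and 6.90, 6.98, 6.41 and 6.65 without (-1.51 ± 0.28), and SWEET2, a vacuolar exporter, and SWEET4 fell by 1.37 and 1.24 on the log2 scale.

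Of 20 genes named for cold, drought or dehydrins 4 rose (20%) and 4 fell (20%), beside 13.8% and 20.2% over all probe sets. Centring gave 12 higher and 3 lower. COR47, a dehydrin, had 12.84, 12.79 and 12.23 in heated plants and 10.94, 9.95, 9.93 and 9.51 in untreated plants (2.54 ± 0.29). TIL, a lipocalin induced by temperature, had 12.77, 12.46 and 12.78 after heat and 10.38, 10.25, 10.26 and 10.21 without (2.39 ± 0.10). COR15B, a plastid protein of cold acclimation, had 8.98, 8.84 and 7.44 in heated plants, lowest in replicate 3, and 7.37, 6.28, 6.77 and 6.13 in untreated plants (1.78 ± 0.42, and 2.27 without that replicate). OSM34, an osmotin, had 5.31, 6.56 and 7.64 after heat and 8.00, 8.47, 9.62 and 9.44 without (-2.38 ± 0.54), and HVA22C, an abscisic acid-inducible protein, fell by 1.22 on the log2 scale.

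Among regulators, 5 of 12 genes of the clock and light signalling rose and 2 fell (8 higher and none lower after centring), with 1 fall without heated replicate 1 or 2. GI (GIGANTEA), which acts in the clock and in flowering, had 8.13, 8.30 and 7.44 in heated plants and 5.98, 5.10, 5.17 and 5.61 in untreated plants (2.49 ± 0.24). XCT, a clock and RNA-processing protein, had 7.26, 7.73 and 7.04 after heat and 5.28, 4.99, 5.25 and 5.19 without (2.17 ± 0.16). The labels do not give the hour of sampling. Of 24 bZIP factors 7 rose (29.2%) and 4 fell (16.7%), beside 13.8% and 20.2% over all probe sets (14 higher and 1 lower after centring). BZIP28 led the rises, and bZIP44 rose by 1.14 ± 0.21. Of 23 bHLH factors 5 fell and none rose (8 higher and 1 lower after centring), a share of falls of 21.7% beside 20.2% over all probe sets, with 2 falls without heated replicate 1 or untreated replicate 3 and 1 rise without heated replicate 1. BIM1, a partner of brassinosteroid-response factors, had 6.11, 6.27 and 5.29 in heated plants and 7.24, 7.29, 7.45 and 7.46 in untreated plants (-1.47 ± 0.22). Of 18 WRKY and AP2/ERF factors 4 fell and none rose (6 higher and 2 lower after centring), again near the share of all probe sets at 22.2%. WRKY47 had 4.22, 4.39 and 3.96 after heat and 7.08, 6.93, 5.17 and 5.69 without (-2.03 ± 0.41), and WRKY6, of senescence and phosphate responses, had 4.77, 4.70 and 4.63 in heated plants and 6.85, 6.28, 5.79 and 6.23 in untreated plants (-1.59 ± 0.22).

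Calcium sensors, their IQD partners and glutamate receptors had 11 of 31 lower and 1 higher (12 higher and 7 lower after centring), with 8 to 10 falls when 1 array was left out. IQD proteins bind calmodulin at microtubules: IQD30 had 4.31, 4.50 and 4.18 in heated plants and 4.94, 5.38, 6.06 and 5.85 in untreated plants (-1.23 ± 0.22), iqd21 fell by 1.2 on the log2 scale and IQD28 by 1.12. GLR3.5, a glutamate receptor-like channel, was the lone rise, with 4.91, 4.65 and 4.84 after heat and 4.1, 3.87, 3.90 and 4.06 without (0.82 ± 0.10). Rises numbered 2 without heated replicate 2 or untreated replicate 1 and 3 without heated replicate 3.

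Other large falls belonged to genes outside these lists. AT4G24780 had 7.30, 7.41 and 7.66 in heated plants and 10.47, 10.57, 10.54 and 10.37 in untreated plants (-3.03 ± 0.09, adjusted p = 1e-09). AT3G62950 had 3.35, 3.48 and 3.70 after heat and 6.99, 6.93, 7.1 and 5.81 without (-3.20 ± 0.26). Its heated values were near or below the lower quartile, so the size of the fall is a lower bound. ZW9 had 5.34, 4.52 and 4.6 in heated plants and 8.13, 7.58, 7.82 and 7.95 in untreated plants (-3.05 ± 0.21), and AT4G30020 fell by 2.26 on the log2 scale with an SE of 0.09.

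Some called genes varied widely between replicates. Among heated arrays, DRT100 had 5.48, 4.87 and 7.08, against 8.45, 8.39, 8.17 and 8.70 in untreated plants (-2.62 ± 0.39), and its difference was -3.26 without heated replicate 3. AT2G23110 had 4.88, 5.50 and 7.32 after heat and 3.63, 3.29, 3.70 and 4.02 without (2.24 ± 0.48, and 1.54 without heated replicate 3, against an untreated level near the lower quartile). AT5G62360 had 7.09, 5.16 and 7.28 in heated plants and 4.32, 3.96, 4.01 and 4.05 in untreated plants (2.43 ± 0.41), with heated replicate 2 the lowest. AT1G35710 had 5.96, 5.60 and 4.00 after heat and 7.64, 7.26, 6.12 and 8.28 without (-2.14 ± 0.60), and it was not called without heated replicate 3 (-1.54). AT1G54020 had 5.60, 3.88 and 6.08 in heated plants and 7.0, 8.98, 9.16 and 7.79 in untreated plants (-3.04 ± 0.61), so it varied in both groups. AT5G61880 had 7.24, 7.17 and 6.08 after heat and 5.54, 4.75, 3.36 and 5.88 without (1.95 ± 0.50). In each of these genes, as in 7082 of the 7725 probe sets called over the array, the groups did not overlap. The spread within a group exceeded 2 in at least 1 group on the log2 scale.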

How the data were processed

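Gene expression was measured on Affymetrix ATH1 arrays. The log2 values per probe set were used as deposited by the authors, made with RMA from the affy package per the submitters' processing notes, whose versions are not given in the sources used here. The table held 22810 probe sets, and 64 controls were left out. With limma 3.58.1 in R 4.3.3, each of the 4 groups of arrays received its own mean in a fit over 12 arrays (8 residual and 3.22 prior degrees of freedom), with two-sided moderated tests and Benjamini-Hochberg adjustment over 22746 probe sets at 0.05. Arrays give no read depth, and their number limits the precision. Of the single-gene probe sets, 13436 matched the RefSeq annotation of TAIR10.1 by gene number. Lists took the probe set of highest mean per gene and were matched on gene names or locus numbers. The members and lists were chosen with earlier results of these data known. Genes were named by a rule: the 15 called single-gene probe sets that rose most and the 15 that fell most with no overlap between groups, up to 4 called rises and 4 called falls per list or else the member of smallest p, the 6 widest ranges among heated and among untreated arrays and the 6 smallest adjusted p per direction. The rule named more genes than the text gives, and RCA, EXPA7 and PEX4 were taken as markers and reference, and nad2 after its values were seen. Alternatives were centring on reference genes, quantile normalization, leaving out dim probe sets, a replicate block, trend and robust moderation, array weights, fitting only the 7 arrays, the mean of a gene's probe sets and leaving out each array. Replicate numbers were not used to pair arrays. The fit was tested on simulated data. Figures were drawn with matplotlib 3.10.9.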

Additional observations from a re-analysis of the deposited data

Results flagged for a closer look

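In 9 of the 158 genes named, 1 untreated array lay far from the other 3 of its group. The measure is the gap to the nearest of the others as a share of the group's range, set against the critical value of Dixon for 4 values, which chance passes in about 1 in 20 groups. Untreated replicate 4 was high in AT1G53540 (5.21, the others 4.19 to 4.24, share 0.949) and AT1G52560 (4.29, the others 3.26 to 3.40, share 0.860), and low in AT3G62950 (5.81, the others 6.93 to 7.1, share 0.868). Untreated replicate 3 was low in DER1 (4.59, the others 5.77 to 5.89, share 0.904), ndhH (5.12, the others 5.40 to 5.45, share 0.845) and PGRL1B (8.76, the others 8.94 to 8.96, share 0.897). Untreated replicate 2 was high in ATHSP22.0 (3.89, the others 3.77 to 3.78, share 0.953) and low in psaJ (11.28, the others 11.38 to 11.39, share 0.888) and AT1G30070 (6.57, the others 6.78 to 6.83, share 0.832). Each of the 9 genes was still called without its outlying array. The heated group has 3 arrays and was not examined this way.

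The heat response of NDB4 differed between the double mutant and the wild type by -1.62 on the log2 scale (limma, adjusted p = 0.0383). Over the other settings the difference ran from -1.71 to -1.44 and its adjusted p from 0.0191 to 0.175.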

How the results depend on the processing

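Centring each array on the reference genes gave 14786 called probe sets (12829 higher and 1957 lower) against 7725, and 604 called list members against 358. It turned LHCB4.1 to 0.14, while 153 of the 154 called named genes kept their direction and 142 also their call. A size of at least 1 left 2154 probe sets (971 higher and 1183 lower). The other settings gave between 5923 and 8281 calls, the lowest of them with only the upper 0.5 of probe sets by mean tested, and kept the direction of each called named gene they measured. Leaving out 1 array gave 6552 to 7454 called probe sets and 309 to 349 called list members. Named genes called for a difference of responses numbered 1, against 0 with centring, 0 with the replicate block and 0 to 4 when 1 array was left out; the 4 without heated replicate 3 were UBP22 (1.03), NDB4 (-1.65), EXPA8 (-1.51) and DRT100 (-1.79), and the call without untreated replicate 1 was DFR (-2.29). Over the array such calls numbered 17, against 7 with centring, 5 with the block and 34 with array weights. The causes were not tested. Same-numbered heated and untreated double mutant arrays deviated from their group means with correlations of -0.02, -0.34 and -0.08. With so few arrays per group these values cannot decide whether the arrays were paired, and the labels name no pairing. With the replicate block, in which untreated replicate 4 has no partner and drops out, 6748 probe sets were called (2689 higher and 4059 lower) and 319 list members, NDB4's difference of responses was -1.47 (adjusted p = 0.121), and LHCB4.1 lost its call (-0.23). Averaging a gene's probe sets gave 1.63 for DER1 and 0.39 for SDH2-1. Signals near the arrays' lower quartiles limit what can be seen for dim genes.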

Other observations

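Of 30 genes of RNA polymerases, splicing and RNA helicases 8 rose (26.7%) and 6 fell (20%), beside 13.8% and 20.2% over all probe sets. After centring 19 were higher and 2 lower, and 2 fell without heated replicate 1. LSM1A, of cytoplasmic mRNA decay, had 6.88, 6.93 and 7.25 in heated plants and 8.27, 8.33, 8.40 and 8.20 in untreated plants (-1.28 ± 0.10), while AT3G09720 (RH57), an RNA helicase, rose by 1.09 ± 0.13. Of 15 tetraspanins, membrane proteins that organise microdomains, 2 rose (13.3%) and 4 fell (26.7%), and after centring 10 were higher and 0 lower. TET2 had 9.0, 8.55 and 9.10 after heat and 6.47, 6.41, 5.95 and 5.95 without (2.69 ± 0.16), and TET5 rose by 0.99 ± 0.10. TET7 fell by 0.71 on the log2 scale and was not called after centring (-0.34). Of 19 RALF and CLE peptides, secreted signals, 2 rose (10.5%) and 6 fell (31.6%), and after centring 7 were higher and 4 lower. Their rises numbered 1 without heated replicate 1 and 0 without heated replicate 2 or untreated replicate 1 or 4. CLE41, which maintains vascular stem cells, had 6.94, 7.27 and 8.08 in heated plants and 8.87, 8.73, 9.18 and 8.53 in untreated plants (-1.4 ± 0.24). RALFL34 fell by 1.16 and RALFL31 by 1.05 on the log2 scale. Of 25 defence genes 1 rose (4%) and 4 fell (16%), shares below those of all probe sets (11 and 1 after centring). The rise was lost without heated replicate 2 or 3 or untreated replicate 4. ATLP-1, a thaumatin-like protein, had 3.92, 4.27 and 4.62 after heat and 6.84, 6.98, 6.69 and 6.95 without (-2.59 ± 0.18).

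Of 50 UDP-glycosyltransferases, which conjugate small molecules to sugars, 6 rose (12%) and 6 fell (12%), beside 13.8% and 20.2% over all probe sets. After centring 35 were higher and 4 lower. UGT73C1 had 5.10, 5.63 and 5.90 in heated plants and 3.66, 3.65, 3.83 and 3.70 in untreated plants, near the arrays' lower quartile (1.84 ± 0.15, a lower bound), and UGT76C2, which glucosylates cytokinins, fell by 1.63 on the log2 scale. Of 14 glutathione transferases 2 rose (14.3%) and 4 fell (28.6%), and after centring 9 were higher and 1 lower. Their falls numbered 2 without heated replicate 2 or 3 or untreated replicate 3 or 4. GSTU20 had 10.28, 10.61 and 9.90 after heat and 11.70, 11.52, 11.79 and 11.50 without (-1.36 ± 0.17), and GSTU18 rose by 0.67 ± 0.13. Of 24 cytochrome P450 enzymes 3 rose (12.5%) and 2 fell (8.3%), shares below those of all probe sets (18 and 2 after centring). Their rises numbered 6 without heated replicate 2. Their falls numbered 1 without heated replicate 1, 2 or 3 or untreated replicate 1, 2 or 4. CYP71B5 rose by 1.67 ± 0.18 and CYP71B6 fell by 0.70 on the log2 scale. Of 19 auxin genes 2 rose (10.5%) and none fell, shares again below those of all probe sets (12 and 0 after centring). There was 1 rise without heated replicate 2. There was 1 fall without heated replicate 3 or untreated replicate 1, and there were 2 falls without untreated replicate 4. IAGLU, an auxin glucosyltransferase, rose by 1.3 ± 0.12. Of 16 genes of cytokinin, ethylene and gibberellin signalling 2 rose (12.5%) and 2 fell (12.5%), also below the shares of all probe sets (8 and 2 after centring). There was 1 rise without heated replicate 1 or 3 or untreated replicate 1, 3 or 4, and 1 fall without heated replicate 1 or 2. SPY, a repressor of gibberellin signalling, rose by 0.66 ± 0.12, and RTE1, a regulator of an ethylene receptor, fell by 0.72 on the log2 scale. Of 42 MADS box factors 3 rose (7.1%) and 4 fell (9.5%), shares below those of all probe sets (35 and 0 after centring). AGL19, which acts in flowering, had 7.28, 7.72 and 8.25 after heat and 6.04, 6.30, 7.05 and 6.65 without (1.24 ± 0.27).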
